A study of Mus musculus with 12 samples.

Results

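The genes described here are 37 genes of glycolysis and of the transcriptional response to low oxygen, taken as a set by their symbols on the array. All 37 were found among 34844 gene names, and all 37 were among the 26518 genes kept for testing. Each was well above background on all 12 arrays. Where the array carries several probes for a gene, the probe of highest mean stood for it.

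RNA of male 129/SV/B6 mice was measured on 12 single-colour Agilent arrays. Every mouse had received diethylnitrosamine (DEN), a liver carcinogen, at 50 mg/kg when 2 weeks old, and poly(IC) 8 months later. Each had also been irradiated and given a bone marrow transplant, with tissue taken 2 months after transplantation and 1 week after poly(IC). Hepatocellular carcinoma (HCC) and non-cancerous tissue, here called liver, were each sampled as wild type and with survivin deleted, which gave 4 groups of 3 arrays. Survivin, encoded by Birc5, is a mitotic protein and inhibitor of apoptosis, and its deletion was driven by Mx-Cre, which poly(IC) induces in liver and blood cells. Whether each array is a separate animal is not in the labels, so p-values measure the spread between these samples, which may be technical.

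Cells sense oxygen through prolyl hydroxylases, which mark the alpha subunits of the hypoxia-inducible factors (HIF) for destruction while oxygen is present. When oxygen falls, the subunits persist, pair with ARNT and bind short DNA motifs near genes for glucose uptake, glycolysis, blood vessel growth and matrix synthesis. The adult hepatocyte makes and stores glucose as well as burning it, and uses the liver forms of several glycolytic enzymes. HIF activity is regulated mainly at the protein level, which these arrays do not measure.

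Values are log2 processed signals with the 75th percentile of each array set to 0. Differences are between group means with the array slide as a block, fitted with limma over all 26518 genes. The 75th percentile signal was 1283 to 1958 on the 4 arrays of slide 1, which held replicate 1 of each group, and 3639 to 4243 for the 8 on slide 2. Of the non-control spots, 49.0% exceeded background clearly on replicate 1 of wild-type liver, and 69.2% to 83.4% on the remaining arrays. For replicate 1 of survivin-deleted liver and of wild-type HCC, each scanner file matches the column of the other in the authors' value table (r = 1.00, against 0.964 and 0.970 with their own). These are called the 2 arrays in doubt, and values with the 2 exchanged are given beside the results where the exchange ended a call. Birc5 was lower by 1.08 in survivin-deleted than in wild-type HCC (SE 0.69, unadjusted limma p above 0.05) and by 0.96 in survivin-deleted than in wild-type liver (SE 0.69, unadjusted limma p above 0.05). With the 2 arrays exchanged these differences were -1.62 and -1.50. The mean of 5 hepatocyte markers was 5.12 on survivin-deleted HCC replicate 2 and 5.25 to 5.59 on the other arrays. The mean of 5 T and NK cell markers was 0.20 on survivin-deleted HCC replicate 2 and -2.55 to -0.27 on the other arrays. The means of 4 adipocyte and 3 skeletal muscle markers were 3.84 and 1.27 on survivin-deleted liver replicate 3, with highest values of -0.21 and -3.58 elsewhere. In bulk tissue, fewer cells of a type and less RNA per cell cannot be told apart.

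Promoter sequence is shown for the members with an unadjusted p under 0.05 in the deletion comparison in HCC or in the difference between tissues that have a RefSeq window, which are Egln3, Hk2, Pklr and Ldha. Each line holds the 250 bases before the annotated start on GRCm38.p6, read 5′ to 3′ on the gene's strand. Capitals mark ACGTG, the core of the HIF binding motif, or CACGT, its reverse complement. The windows are chr12:54203875-54204124 on the minus strand for Egln3, chr6:82774455-82774704 on the minus strand for Hk2, chr3:89135892-89136141 on the plus strand for Pklr and chr7:46845554-46845803 on the plus strand for Ldha.
Egln3: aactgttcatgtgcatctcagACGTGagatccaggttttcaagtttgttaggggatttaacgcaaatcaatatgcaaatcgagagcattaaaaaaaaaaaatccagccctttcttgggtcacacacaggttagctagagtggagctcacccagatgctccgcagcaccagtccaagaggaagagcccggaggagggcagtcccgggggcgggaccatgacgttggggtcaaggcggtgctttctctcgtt
Hk2: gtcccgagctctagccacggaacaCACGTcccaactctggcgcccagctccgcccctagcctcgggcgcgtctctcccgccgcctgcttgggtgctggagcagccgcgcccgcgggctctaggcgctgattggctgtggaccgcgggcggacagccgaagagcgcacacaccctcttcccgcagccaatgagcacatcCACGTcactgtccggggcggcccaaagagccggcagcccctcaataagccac
Pklr: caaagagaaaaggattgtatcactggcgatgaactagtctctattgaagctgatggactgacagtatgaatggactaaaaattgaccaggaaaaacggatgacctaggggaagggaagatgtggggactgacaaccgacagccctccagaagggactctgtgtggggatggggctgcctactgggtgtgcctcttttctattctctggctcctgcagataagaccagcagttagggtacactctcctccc
Ldha: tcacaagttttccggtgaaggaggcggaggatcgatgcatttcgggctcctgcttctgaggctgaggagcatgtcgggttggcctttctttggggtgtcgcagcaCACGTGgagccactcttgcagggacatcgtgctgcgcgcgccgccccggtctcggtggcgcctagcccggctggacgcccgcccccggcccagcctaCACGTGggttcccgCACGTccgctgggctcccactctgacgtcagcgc
The Egln3 window held 1 match, the Hk2 window 2 and the Ldha window 5, some of which overlap on opposite strands, while the Pklr window held 0. Further windows are annotated for Pklr and Ldha, and those held 0 matches. On either strand ACGTG occurred before the start of 20 of the 34 members with a window (58.8%), against 18.5% of all 27025 genes with one. GCGTG, the other common form, occurred for 22 of the 34 (64.7%), against 30.9% of all genes. A gene with more windows has more chances of a match. Counted by window, ACGTG occurred in 44% of 50 member windows and 16.6% of all 32851. The members were chosen in part as hypoxia targets, so these shares test nothing. No window was listed for Epas1, Ndrg1 and Slc2a3. A match is a description of the letters and does not show binding.

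No member passed an adjusted p of 0.05 in any of the 5 comparisons, and neither did any other gene (0% of 26518 in each). The members are therefore described by their values, with unadjusted limma p-values read against the share of all genes that reach the same level. In wild-type HCC against wild-type liver, 3 of 37 members had an unadjusted p under 0.05, where 6.09% of all genes did. In survivin-deleted HCC against survivin-deleted liver it was 2 members, with 4.39% of all genes. For survivin deletion in HCC it was 4 members, with 7.89% of all genes. For survivin deletion in liver it was 3 members, with 11.8% of all genes. For the difference between the deletion effects in the tissues it was 1 member, with 3.28% of all genes, and that difference was above 0 for 29 members (78.4%, all genes 43.6%), and for 18 members without survivin-deleted HCC replicate 2, with a median of -0.01 in place of 0.19. The files place the probes on mm9, that of Egln3 at chr12:55281252-55281311, Ndrg1 at chr15:66761057-66761116, Hk2 at chr6:82675056-82675115 and Ldha at chr7:54110937-54110996. The counts lie near the shares of all genes, and they are not a result about the members as a set.

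The direction of the differences was more uneven than the counts. Survivin-deleted HCC had higher values than wild-type HCC for 26 of 37 members (70.3%), against 47.4% of all genes, with a median difference of 0.22 against -0.02. Without survivin-deleted HCC replicate 2 the difference was above 0 for 18 members and the median was -0.005. With every array kept, the slides differed in sign. The median was -0.15 on slide 1 (all genes -0.18) and 0.30 on slide 2 (all genes 0.04). In liver, 22 members were higher in the survivin-deleted group (59.5%, all genes 55.1%), with a median of 0.04. Wild-type HCC had higher values than wild-type liver for 13 members (35.1%, all genes 55.4%), with a median of -0.10. Survivin-deleted HCC had higher values than survivin-deleted liver for 26 members (70.3%, all genes 44.2%), with a median of 0.10, and for 15 members with a median of -0.12 without that same array. Exchanging the 2 arrays in doubt gave medians of -0.21 and 0.05 for HCC against liver in wild-type and survivin-deleted mice, and 0.21 and 0.11 for the deletion in HCC and liver. These comparisons share groups and are not independent of each other.

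**Figure D1:**
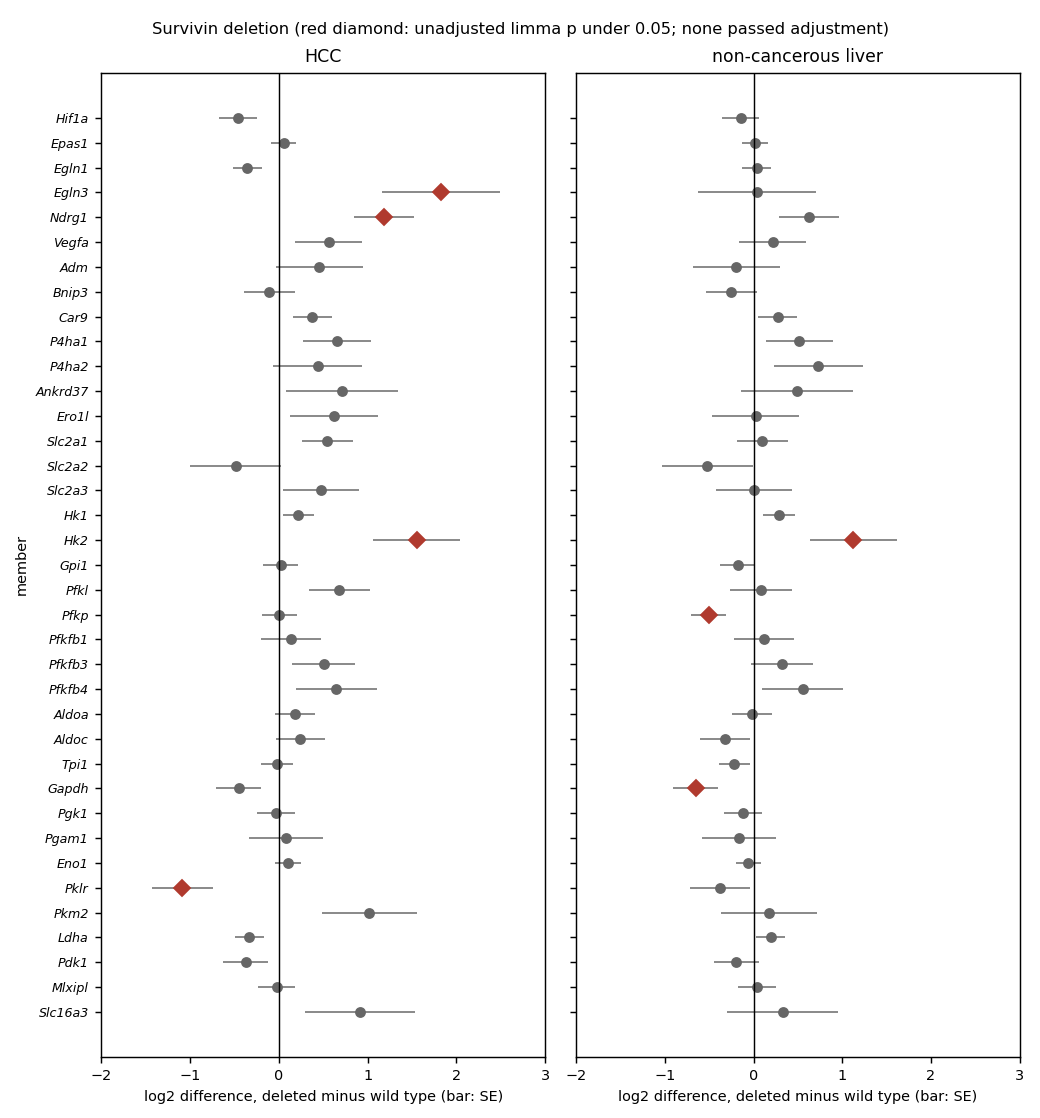
Log2 difference between survivin-deleted and wild-type samples for each of the 37 members (vertical axis) in HCC and in non-cancerous liver, with bars of 1 standard error from the limma fit to all 12 arrays. Red diamonds mark an unadjusted p under 0.05: Egln3, Ndrg1, Hk2 and Pklr in HCC, and Hk2, Pfkp and Gapdh in liver.

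Survivin-deleted HCC replicate 2 stood apart from the other arrays in these genes. It gave the highest value among the 8 arrays of slide 2 for 22 of 37 members (59.5%), where it was highest for 24.3% of all genes. Its median deviation from the slide mean was 0.56 over the members and 0.02 over all genes. The median deviation was 1.27 over the 9 hypoxia targets and 0.07 over the 15 glycolytic enzymes. On the other 11 arrays the median of the hypoxia targets lay between -0.48 and 0.30. The T and NK cell markers were highest on the same array, as given above, and the mean of 5 gluconeogenesis genes was lowest there, at 3.70 against 4.05 to 4.84 elsewhere. The hepatocyte marker mean was lowest on that array too. The part of any of these in the result was not tested.

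**Figure D2:**
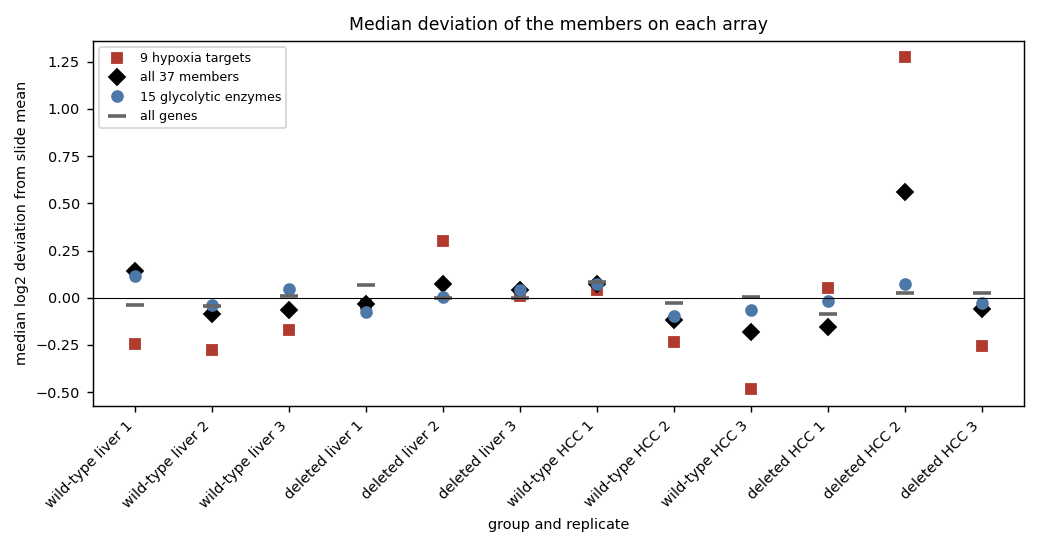
Median log2 deviation from the mean of the array's slide (vertical axis) on each of the 12 arrays (horizontal axis), for the 9 hypoxia targets, the 37 members, the 15 glycolytic enzymes and all genes. The hypoxia targets reach 1.27 on survivin-deleted HCC replicate 2 and stay between -0.48 and 0.30 elsewhere.

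**Figure D3:**
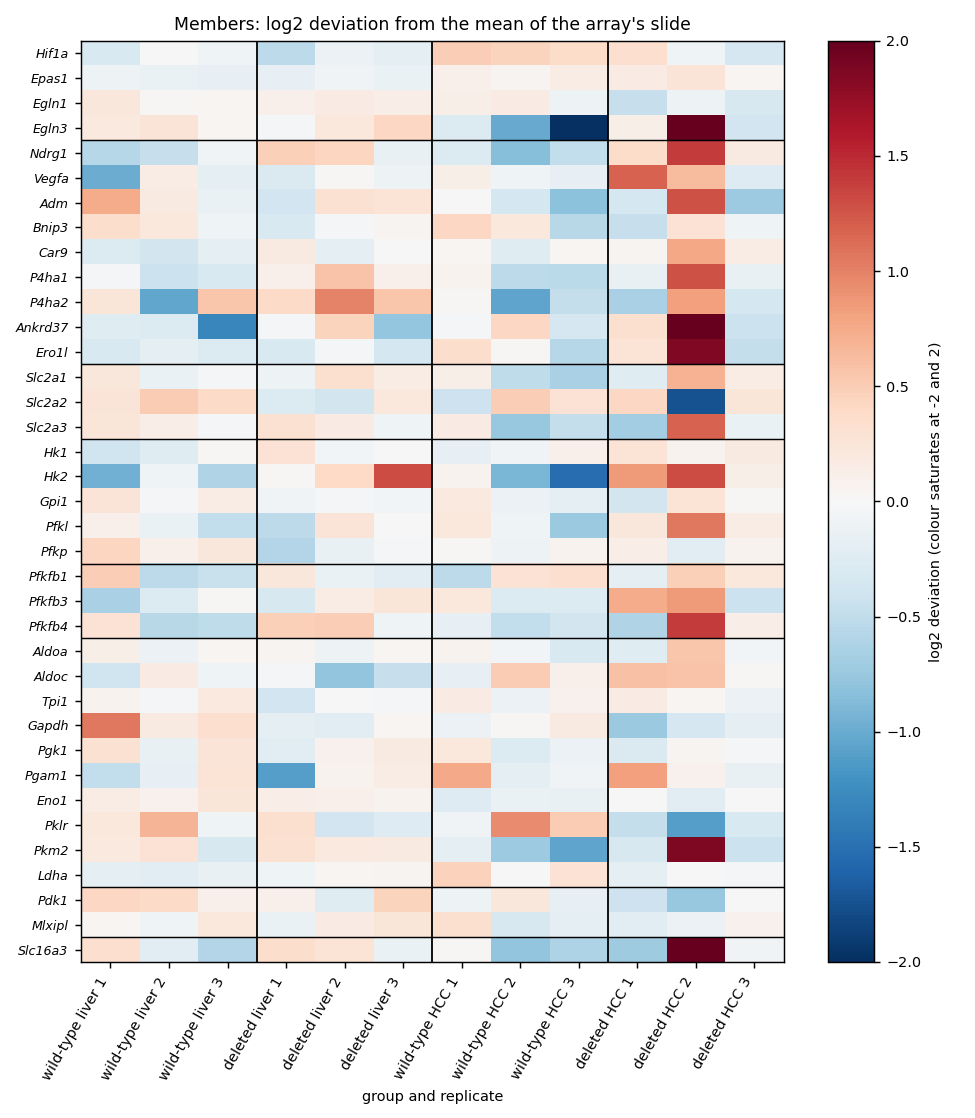
Log2 deviation of every member (rows) from the mean of the array's slide, for each array (columns, by group and replicate). Horizontal lines mark where the role of neighbouring members changes, and colour saturates at -2 and 2. The column of survivin-deleted HCC replicate 2 is red for most hypoxia targets and for Slc16a3, and blue for Slc2a2 and Pklr.

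The oxygen sensing members were Hif1a and Epas1, which encode the alpha subunits HIF-1 and HIF-2, and the prolyl hydroxylase genes Egln1 and Egln3. Egln3, itself a HIF target, read 0.14, -1.35 and -2.35 in wild-type HCC and 0.54, 2.11 and -0.74 in survivin-deleted HCC. The groups overlap, with survivin-deleted replicate 2 far above and wild-type replicate 3 far below the rest. The difference was 1.82 (SE 0.67, limma adjusted p = 0.588). It was 0.90 without survivin-deleted HCC replicate 2 (unadjusted limma p above 0.05) and 1.34 without wild-type HCC replicate 3 (unadjusted limma p above 0.05). In liver Egln3 read 0.62, -0.09 and -0.32 in the wild-type and 0.40, -0.14 and 0.06 in the survivin-deleted samples, a difference of 0.04 (SE 0.67). The difference between those effects was 1.79, with an unadjusted limma p above 0.05

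Hif1a read 0.97, 1.05 and 0.97 in wild-type HCC, above all 9 other arrays. Survivin-deleted HCC read 0.81, 0.52 and 0.28, wild-type liver 0.17, 0.61 and 0.53, and survivin-deleted liver -0.05, 0.50 and 0.43. Wild-type HCC was higher than wild-type liver by 0.56, with separated groups as for 2.55% of all genes with an unadjusted p under 0.05 (SE 0.21, limma adjusted p = 0.752). With the 2 arrays in doubt exchanged that difference was 0.22 (unadjusted limma p above 0.05) and the groups overlapped. The deletion difference in HCC was -0.46 (SE 0.21, unadjusted limma p above 0.05), and -0.12 with the 2 arrays exchanged. Egln1 read -1.71, -2.02 and -2.25 in survivin-deleted HCC and -1.15, -1.76 and -1.79 in survivin-deleted liver. Within each slide the HCC arrays were the lower ones, by 0.43 in the fit (SE 0.16, limma adjusted p = 0.904). Without both arrays in doubt the difference was -0.43, with an unadjusted limma p above 0.05. On the chosen probe Epas1 differed by at most 0.28 in any comparison of groups. The other Epas1 probes were also above background on all 12 arrays. One was higher in HCC than in liver by 0.82 in wild-type samples (unadjusted limma p above 0.05). With survivin deleted it was higher by 0.89 (unadjusted limma p under 0.05 in a separate fit to all probes). The remaining probe differed by 0.13 and 0.07.

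The hypoxia targets were Ndrg1, Vegfa, Adm, Bnip3, Car9, P4ha1, P4ha2, Ankrd37 and Ero1l. In HCC 8 of these 9 had a higher mean with survivin deleted, with a median difference of 0.56, where 47.4% of all genes were higher. Without survivin-deleted HCC replicate 2 it was 4 of the 9, with a median of -0.03. By slide, with every array kept, the median was -0.07 on slide 1 and 0.88 on slide 2. With all arrays 1 of the 9 had an unadjusted p under 0.05, as 7.89% of all genes did. Ndrg1, a stress-responsive gene linked to differentiation, read 1.57, 1.01 and 1.37 in wild-type HCC and 2.21, 3.25 and 2.04 in survivin-deleted HCC. All 3 survivin-deleted HCC arrays were above all 3 wild-type ones, and among all genes 2.75% had separated groups and an unadjusted p under 0.05 in either direction. The difference was 1.18 (SE 0.34, limma adjusted p = 0.568). It was 0.79 without survivin-deleted HCC replicate 2 (unadjusted limma p under 0.05). With the 2 arrays exchanged it was 0.93 (unadjusted limma p under 0.05), and the groups then overlapped. In liver Ndrg1 read 1.27, 1.40 and 1.79 in the wild-type and 2.32, 2.28 and 1.72 in the survivin-deleted samples, a difference of 0.62 (unadjusted limma p above 0.05), and of 0.37 with the 2 arrays exchanged.

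Ankrd37, which encodes an ankyrin repeat protein, read -1.03, 0.47 and -0.28 in wild-type HCC and -0.66, 2.32 and -0.37 in survivin-deleted HCC. Only survivin-deleted HCC replicate 2 lay above the wild-type range, and the difference of 0.71 (SE 0.63) became -0.11 without it. Vegfa, the gene of the main angiogenic growth factor, differed by 0.56 in HCC (SE 0.38, unadjusted limma p above 0.05), and by 0.51 without that array. Car9, a carbonic anhydrase gene, differed by 0.37 (SE 0.22), and by 0.14 without it. P4ha1 and P4ha2 encode collagen prolyl hydroxylase subunits and differed by 0.65 and 0.44, and by 0.15 and -0.03 without it. Ero1l, which encodes an oxidase of the endoplasmic reticulum, differed by 0.62, and Adm, the adrenomedullin gene, by 0.46. Both turned without that array, to -0.08 for Ero1l and -0.19 for Adm. Bnip3, a mitophagy gene, differed by -0.11, by -0.31 without it and by 0.13 with the 2 arrays in doubt exchanged. The other Bnip3 probes, above background on all 12 arrays, differed by 0.37 and 0.88 (unadjusted limma p above 0.05 for each).

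**Figure D4:**
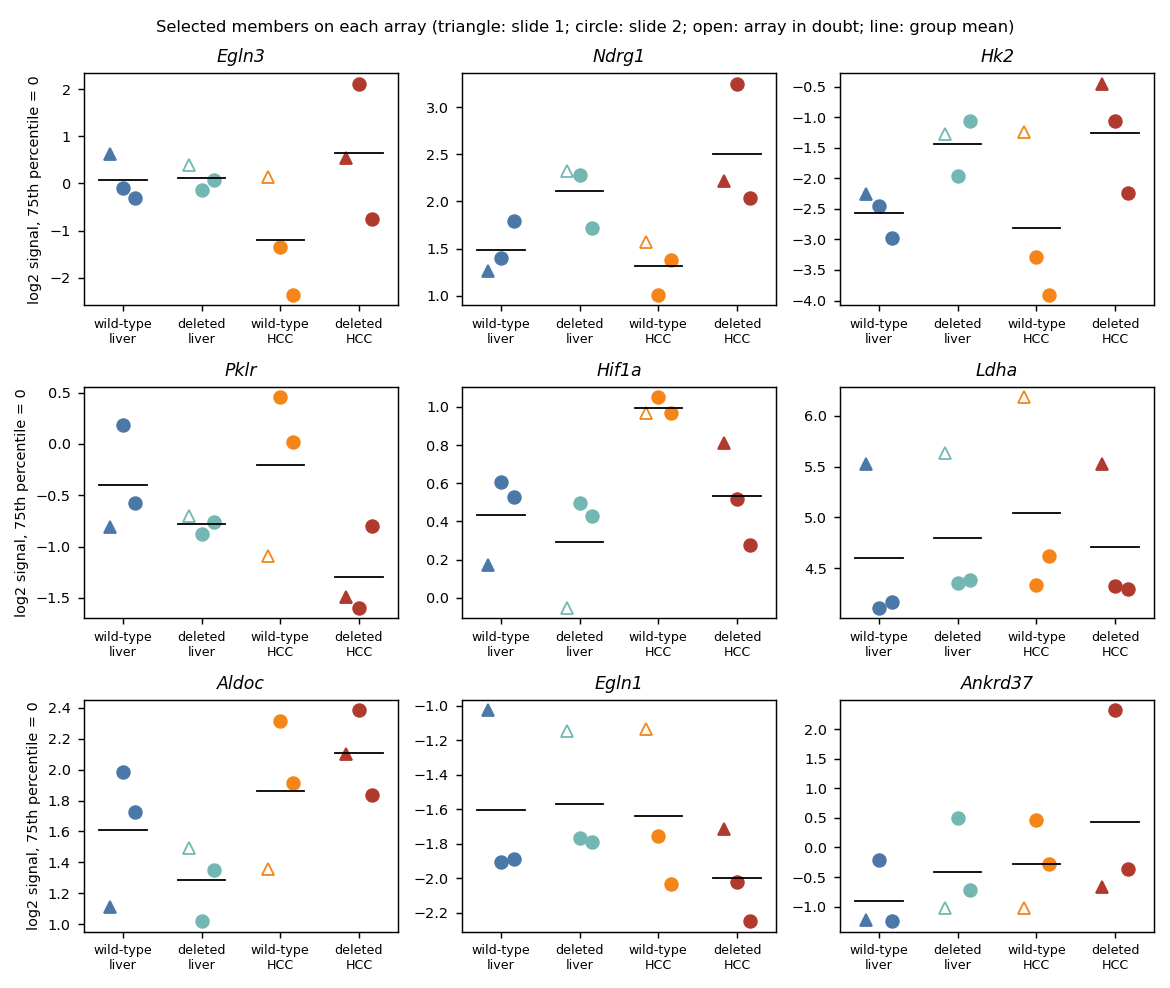
Log2 signal relative to the 75th percentile (vertical axis) of 9 members on every array of the 4 groups (horizontal axis), with slide 1 as triangles, slide 2 as circles, the 2 arrays in doubt open and the group mean as a line. Ndrg1 lies between 1.01 and 1.57 in wild-type HCC and between 2.04 and 3.25 in survivin-deleted HCC.

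The transport members carry glucose (Slc2a1, Slc2a2, Slc2a3) and lactate (Slc16a3) across the cell membrane, and none had an unadjusted p under 0.05 in any comparison. Slc2a1, the widely expressed transporter, read 1.98, 0.98 and 0.84 in wild-type HCC and 1.62, 2.18 and 1.64 in survivin-deleted HCC. The survivin-deleted arrays were higher on slide 2 and lower on slide 1, with a difference of 0.55 in the fit (SE 0.29, unadjusted limma p above 0.05). It was 0.28 without survivin-deleted HCC replicate 2, and 0.62 with the 2 arrays in doubt exchanged, then with an unadjusted limma p under 0.05. Slc2a2, the hepatocyte transporter, read 1.14, 3.31 and 3.12 in wild-type HCC and 1.97, 1.08 and 3.06 in survivin-deleted HCC. Its lowest value of the 12 arrays was that of survivin-deleted HCC replicate 2, and the difference was -0.49 (unadjusted limma p above 0.05). Without that array the difference turned to 0.25. Slc16a3 read 1.37 on that array and -0.86 on replicate 3 of the same group and slide. Its deletion difference in HCC was 0.91, and 0.01 without that array.

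Among the 15 glycolytic enzymes was Hk2, the only member with an unadjusted limma p under 0.05 in both deletion comparisons. Hk2 encodes the hexokinase of muscle, fat and many tumours. Hk2 read -1.24, -3.29 and -3.90 in wild-type HCC and -0.45, -1.07 and -2.25 in survivin-deleted HCC. On each slide the survivin-deleted HCC arrays were above the wild-type ones, although the groups overlap across slides. The difference was 1.55 (SE 0.49, limma adjusted p = 0.575), with 1.16 to 2.13 when each array was left out in turn. In liver Hk2 read -2.26, -2.45 and -2.98 in the wild-type and -1.28, -1.97 and -1.07 in the survivin-deleted samples. The groups did not overlap, as for 5.51% of all genes in either direction at an unadjusted p under 0.05, and the difference was 1.13 (SE 0.49, limma adjusted p = 0.421). Without survivin-deleted liver replicate 3, the array with adipocyte and muscle markers, it was 0.74 (unadjusted limma p above 0.05). With the replicate number as a block the unadjusted limma p in liver was above 0.05. It stayed under 0.05 in 6 of 14 alternatives and in 6 of 12 fits that left out 1 array. The deletion effects in the tissues differed by 0.43 for Hk2, with an unadjusted limma p above 0.05

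Pklr encodes the liver and red cell pyruvate kinase. It read -1.09, 0.46 and 0.01 in wild-type HCC and -1.49, -1.60 and -0.80 in survivin-deleted HCC. On each slide the survivin-deleted arrays were lower, with a difference of -1.09 (SE 0.34, limma adjusted p = 0.575). With the 2 arrays exchanged the groups separated and the difference was -1.22 (unadjusted limma p under 0.05). In liver it differed by -0.38 (unadjusted limma p above 0.05). Pkm2, the gene of the other pyruvate kinase, differed by 1.02 in HCC (SE 0.54, unadjusted limma p above 0.05), and by 0.22 without survivin-deleted HCC replicate 2.

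Ldha, which encodes the lactate dehydrogenase subunit that favours lactate production, read 6.19, 4.33 and 4.62 in wild-type HCC and 5.53, 4.11 and 4.17 in wild-type liver. On each slide the wild-type HCC arrays were the higher ones, by 0.44 in the fit (SE 0.16, unadjusted limma p under 0.05). With the 2 arrays exchanged it was 0.26 (unadjusted limma p above 0.05). Ldha read 5.64, 4.36 and 4.39 in survivin-deleted liver and 5.52, 4.32 and 4.29 in survivin-deleted HCC. The deletion differences were -0.33 in HCC and 0.19 in liver, or -0.15 and 0.37 with the 2 arrays exchanged. Their difference was -0.52 (SE 0.23, limma adjusted p = 0.913), with an unadjusted limma p under 0.05 that the exchange ended. Slide 1 arrays were above slide 2 arrays in every group for this probe. The other Ldha probes were also above background on all 12 arrays. They gave deletion differences of -0.94 and -0.35 in HCC and of -0.06 and -0.23 in liver. Between the tissues these differed by -0.88 and -0.12.

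Aldoc, which encodes an aldolase, read 2.10, 2.38 and 1.83 in survivin-deleted HCC and 1.49, 1.02 and 1.35 in survivin-deleted liver. The groups did not overlap, a criterion met with an unadjusted p under 0.05 by 1.33% of all genes, and the difference was 0.82 (SE 0.28, limma adjusted p = 0.904). It was 0.72 without survivin-deleted HCC replicate 2 (unadjusted limma p above 0.05). Eno1, an enolase gene, was lower in wild-type HCC than in wild-type liver by 0.34 (SE 0.14, unadjusted limma p under 0.05). The unadjusted limma p stayed under 0.05 in 4 of 14 alternatives and 3 of 12 fits that left out 1 array, and with the 2 arrays exchanged the difference was -0.21. Gapdh read 5.64, 4.71 and 4.98 in survivin-deleted liver and 6.90, 5.12 and 5.28 in wild-type liver, a difference of -0.65 (SE 0.25, unadjusted limma p under 0.05). On each slide the survivin-deleted liver arrays were lower. The difference was -0.30 without wild-type liver replicate 1, -0.26 on slide 2 alone and -0.56 without both arrays in doubt, each with an unadjusted limma p above 0.05. Other Gapdh probes, above background on all 12 arrays, differed in liver by -1.02 to -0.05. The annotation places some of them on chromosomes 7, 8 and X. Pfkp, a phosphofructokinase gene, differed by -0.51 in liver (SE 0.20, unadjusted limma p under 0.05), and by 0.18 when its probes were averaged. It was -0.30 with the 2 arrays exchanged, -0.25 on slide 2 alone and -0.26 without both, each with an unadjusted limma p above 0.05. The array annotation places the probes for Eno1, Hk1 and Pgk1 on chromosomes 2, 5 and 3. The RefSeq windows of these genes lie on chromosomes 4, 10 and X. Glycolytic genes have near-identical copies, so these values may include signal of copies. The Hk1 differences on this probe are also 2 of the medians over members. These are 0.22 for deletion in HCC and 0.10 for survivin-deleted HCC against survivin-deleted liver. Another Hk1 probe, on chromosome 10, gave 0.42 and 0.55. Of 12 members with several probes above background, all probes had 1 sign for 7 in each deletion comparison.

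The flux regulators were Pfkfb1, Pfkfb3 and Pfkfb4, whose enzymes set the level of fructose 2,6-bisphosphate, Pdk1, which restrains pyruvate entry into mitochondria, and Mlxipl, which encodes the glucose-responsive factor ChREBP. None had an unadjusted p under 0.05. Pfkfb4 read 0.02, -1.43 and -1.31 in wild-type HCC and -0.41, 0.46 and -0.81 in survivin-deleted HCC, a difference of 0.65 (SE 0.46, unadjusted limma p above 0.05). It was 0.07 without survivin-deleted HCC replicate 2 and 0.43 with the 2 arrays in doubt exchanged. The survivin-deleted array was the lower one on slide 1, and on slide 2 both were higher. On the chosen probe Mlxipl differed by at most 0.18 in any comparison. Its other probe, above background on all 12 arrays, differed by 0.23 for deletion in HCC. For survivin-deleted HCC against survivin-deleted liver that probe differed by 0.19 and the chosen probe by -0.18.

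Other genes of these pathways were read from lists of 7 HIF system genes, 23 hypoxia targets, 18 glycolysis genes, 5 gluconeogenesis genes and 6 genes around ChREBP, of which 6, 21, 17, 5 and 6 were kept. For survivin deletion in HCC, 1 of the 6, 1 of the 21 and 1 of the 17 were higher and 2 of the 6 ChREBP genes lower at an unadjusted p under 0.05, where 3.44% of all genes were higher and 4.45% lower. After the exchange 2 of the 6 HIF system genes, 0 of the 21 and 1 of the 17 were higher, and 1 of the 6 ChREBP genes lower. Loxl2, which encodes a collagen cross-linking oxidase, differed by 1.11 (SE 0.36, unadjusted limma p under 0.05) with separated groups. Wild-type HCC replicate 1, an array in doubt, read -1.89 where the other wild-type HCC arrays read 0.13 and 0.56. With the exchange the difference was 0.71 and without both arrays 0.60, each with an unadjusted limma p above 0.05. Klf10, a zinc finger factor gene, differed by -0.88 (SE 0.38, unadjusted limma p under 0.05) with separated groups. It was -0.81 with the exchange and -0.55 without survivin-deleted HCC replicate 2, each with an unadjusted limma p above 0.05. For the deletion in liver, Rora differed by -0.52 (SE 0.20, unadjusted limma p under 0.05) over 2 wild-type and 3 survivin-deleted arrays, since its spots were flagged on wild-type liver replicate 1. The nearest arrays of the groups read 2.75 and 2.74. With the exchange the groups overlapped and the difference was -0.33, with an unadjusted limma p above 0.05. In wild-type HCC against wild-type liver, Pdk3 differed by 1.10 (SE 0.40, unadjusted limma p under 0.05) with separated groups. G6pc, which encodes the catalytic subunit of glucose-6-phosphatase, was lower in survivin-deleted HCC than in survivin-deleted liver by 0.91 (SE 0.41, unadjusted limma p above 0.05). Pck1, the gene of the cytosolic enzyme that starts gluconeogenesis, differed by -0.45 in that comparison and by -0.44 for deletion in HCC, and by -0.09 and -0.08 without survivin-deleted HCC replicate 2.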

How the data were processed

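The authors' scanner files hold processed intensity values, made per the submitters' processing notes with Agilent Feature Extraction 10.7 and with multiplicative and spatial detrending on, per the file headers. The deposited value table holds log2 values shifted so that each array's 75th percentile is about 0, and it served as an alternative. Its centring was read from the values.

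Unflagged spots of a probe were averaged on the log2 scale, and each array's 75th percentile over ControlType 0 probes was subtracted. This percentile was first taken over spots. It was changed to probes after results had been computed, and after a comparison with an earlier account of these data. It was changed because the rule for the members names probes, and because the values then lie within 0.028 of the authors' table. For the 2 arrays in doubt this closeness is to each other's column and not to their own. The change shifted arrays by 0.11 to 0.18, and both versions are compared in the closing part. A probe was kept where some group had it well above background throughout (39156 of 55681). limma 3.58.1 in R 4.3.3 fitted 4 group means and slide to 12 arrays with 7 residual degrees of freedom and Benjamini-Hochberg adjustment, and the fit was tested on simulated data. The p-values of further probes of a gene come from the same design fitted to all 55681 probes. In that fit the chosen probes of Hk2 in liver, Eno1 in wild-type HCC against liver and Ldha between tissues were above an unadjusted p of 0.05. Members and lists were chosen with earlier results of these data known. Described in full are members past the adjusted threshold, those at unadjusted p under 0.05 with separated groups, and at least 1 per role. Other members at unadjusted p under 0.05, and those showing the array that stands apart, were added after their values were seen. Other pathway genes are named at unadjusted p under 0.05 with separated groups, plus G6pc and Pck1, and 2 further genes that this rule names are not reported here. Same-numbered arrays of different groups correlated in their deviations by 0.279 to 0.737, and within slide 2 by -0.09 to 0.28, with 2 of 6 over 0.1, so the numbers pair arrays largely through the slide. Promoter windows are from RefSeq on GRCm38.p6, with 34 of 37 members matched, 2 of the 37 under a newer symbol. The number of arrays limits the precision.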

Additional observations from a re-analysis of the deposited data

Results flagged for a closer look

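The change of Ldha with survivin deletion in HCC minus that in liver was -0.52 in the interaction term of the fit (SE 0.23, unadjusted limma p under 0.05). That level was reached by 1 of 37 members and by 3.28% of all genes. The limma adjusted p for Ldha was 0.913. The unadjusted limma p stayed under 0.05 in 5 of 14 alternatives and in 2 of 12 fits that left out 1 array. The other Ldha probes gave -0.88 and -0.12 for the difference between the tissues. In liver they differed by -0.06 and -0.23, where the chosen probe differed by 0.19.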

How the results depend on the processing

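Of 26 alternatives, 12 changed only by leaving out 1 array. Another combined leaving out wild-type HCC replicate 2 with the percentile over spots, and it is counted among the other 14. The 14 also hold both the value table and the exchange of the 2 arrays in doubt, which are nearly the same fit. They are therefore not 14 independent checks. The count of members called was 0 in all 26 alternatives. The 75th percentile over spots, the version computed before the one reported, gave 0 genes called in each comparison and medians of -0.09, 0.08, 0.22, 0.06 and 0.17. The version matters for Pklr in HCC without wild-type HCC replicate 2, where the difference was -0.83 in both and the unadjusted limma p was above 0.05 over spots and under it over probes. That setting, the percentile over spots and the exchange of arrays without a slide block were chosen after seeing the data. Slide 2 only gave 1 gene called for deletion in HCC and 1 in liver, and leaving out both arrays in doubt gave 2 in HCC. Leaving out 1 array gave 0 to 1 genes called for HCC against liver in either genotype, 0 to 2 for deletion in HCC and 0 to 2 in liver. The median over members for deletion in HCC was then -0.0047 to 0.295, lowest without survivin-deleted HCC replicate 2. Pfkp in liver turned to 0.18 with the mean of all probes, where another probe reads the other way. The replicate block left 0 genes called in each comparison with a median of 0.22 in HCC. Among unadjusted calls the share higher was 60.2%, 39.9%, 70.7% and 25.7% for HCC against liver in wild-type and survivin-deleted mice, deletion in liver and the tissue difference. It was 58.8%, 51.9%, 61.0% and 41.5% after quantile normalization, and 47.8%, 47.5%, 52.6% and 47.5% after normexp. Egln3, Hk2 and Pklr in HCC kept an unadjusted limma p under 0.05 in 14, 14 and 13 of 14 alternatives, and Ndrg1 in 13. Hk2 in liver kept it in 6.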
